A study of Saccharomyces cerevisiae with 12 samples.

Results

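The cytosolic ribosomal protein genes of Saccharomyces cerevisiae were followed in the wine yeast EC1118 while it fermented base wine a further time inside sealed bottles, as is done for sparkling wine. The genes were taken by name alone: symbols that read RPL or RPS followed by a number, with or without the copy letter A or B, and the stalk genes RPP0, RPP1A, RPP1B, RPP2A and RPP2B. Of the 5449 S. cerevisiae genes measured, 127 met this rule, 75 of the large subunit (the stalk included) and 52 of the small subunit. Other members of the family were not analysed here. Of the 127 genes, 109 carry a copy letter and 18 do not, and the latter are called single-copy genes in what follows.

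Transcripts were measured on 12 Affymetrix arrays, 3 in each of 4 groups. The reference group was EC1118 growing exponentially without stress in YPD, a rich glucose medium, at 28 °C. The bottle groups were EC1118 cells that had first been adapted to ethanol and were then sealed with base wine and sucrose at 16 °C without shaking. Sampling took place on 3 days, day 7 with an ethanol increase of 0.26%, day 15 with 0.89% and day 19 with 1.27%. All groups are the same commercial strain, and the labels give no genetic change. Reference and bottles differ at once in growth phase, medium, ethanol and temperature, so these factors cannot be told apart. The bottle replicates are labelled as independent tirage assays (separate bottlings). The labels do not say whether the reference replicates were separate cultures, so their spread may be technical.

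A ribosome is built from ribosomal RNA and a fixed set of proteins, and in rapidly growing yeast the ribosomal protein mRNAs are among the most abundant. In S. cerevisiae most of these proteins are encoded by a pair of paralogues kept after an ancient genome duplication. Their promoters are bound by Rap1 together with Fhl1, Ifh1 and Sfp1, and their transcription follows nutrient signalling through the TOR kinase and protein kinase A, falling when growth slows.

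The deposited values are log2 probe set summaries, in which 1 unit is a doubling. They are relative within an array, so less of a transcript per cell and a smaller share of the RNA pool cannot be told apart, and the signals of different probe sets do not order transcripts by abundance. All 127 genes lay above background in every group, the lowest single value being 7.64 against a background of 4.58 taken from the Schizosaccharomyces pombe probe sets of the same array. The reference arrays lay closest together: the median standard deviation of a ribosomal protein gene was 0.052 there, against 0.075, 0.22 and 0.30 in the groups of day 7, day 15 and day 19. For all genes tested the same medians were 0.12, 0.32, 0.30 and 0.43.

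Ribosomal protein transcripts were lower in the bottles than in the growing culture at each sampling day. The median over the 127 genes was 13.67, 13.71 and 13.69 on the reference arrays. It was 13.30, 13.19 and 13.23 at day 7, 13.39, 12.88 and 13.26 at day 15, and 13.26, 13.28 and 12.67 at day 19. Each of the 9 bottle arrays lay below each of the 3 reference arrays. Day 15 replicate 2 and day 19 replicate 3 were the lowest, and of the 127 genes 96 had their lowest bottle value on day 19 replicate 3 and 23 on day 15 replicate 2. The median gene of the family ranked at the 98.2 to 98.3 percentile of all genes on the reference arrays and at the 93.0 to 96.8 percentile on the bottle arrays.

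**Figure D1:**
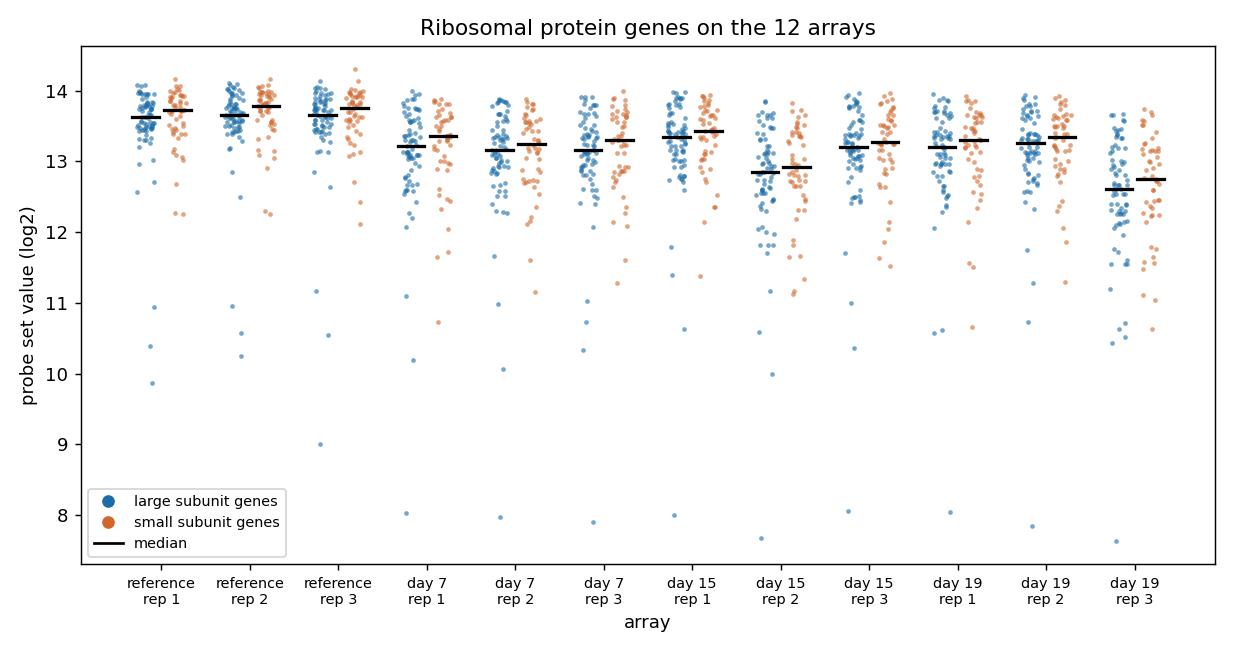
Log2 probe set values (y axis) of the 75 large subunit (blue) and 52 small subunit (orange) ribosomal protein genes on each of the 12 arrays (x axis), one point per gene, with black bars at the medians. The bars of all 9 bottle arrays sit below those of the 3 reference arrays, and those of day 15 replicate 2 and day 19 replicate 3 are the lowest.

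Gene by gene, all 9 bottle values lay below all 3 reference values for 112 of the 127 genes (88.2%), against 24% of all genes tested. The 15 exceptions were RPL1B, RPL4A, RPL8A, RPL9B, RPL10, RPL15B, RPL22B, RPP1A, RPP2B, RPS4B, RPS9A, RPS11B, RPS23A, RPS30A and RPS31. Taken day by day, the groups did not overlap, with the bottles lower, for 117 genes at day 7 (33% of all genes), 115 at day 15 (37.8% of all genes) and 120 at day 19 (30.6% of all genes). With the bottles higher they did not overlap for 0, 1 and 1 of the 127 genes, against 30.8%, 33% and 28.9% of all genes, and the gene at day 15 and day 19 was RPL15B.

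Most genes moved a little, and to the same side. The median change from the reference was -0.40 at day 7, -0.45 at day 15 and -0.59 at day 19 for the 127 genes, against -0.03, -0.08 and -0.03 for all genes tested. The change was below 0 for 124, 126 and 125 of them. Its range was -1.84 to 0.24 for day 7, -1.91 to 0.35 for day 15, and -1.97 to 0.29 for day 19. A change of 2-fold or more was seen in 6, 11 and 17 of the 127 genes, all of them lower. Of the 5449 genes tested, 741, 938 and 811 were lower by 2-fold or more, a larger share at each day. These 3 comparisons share the same reference arrays and are not independent of each other.

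**Figure D2:**
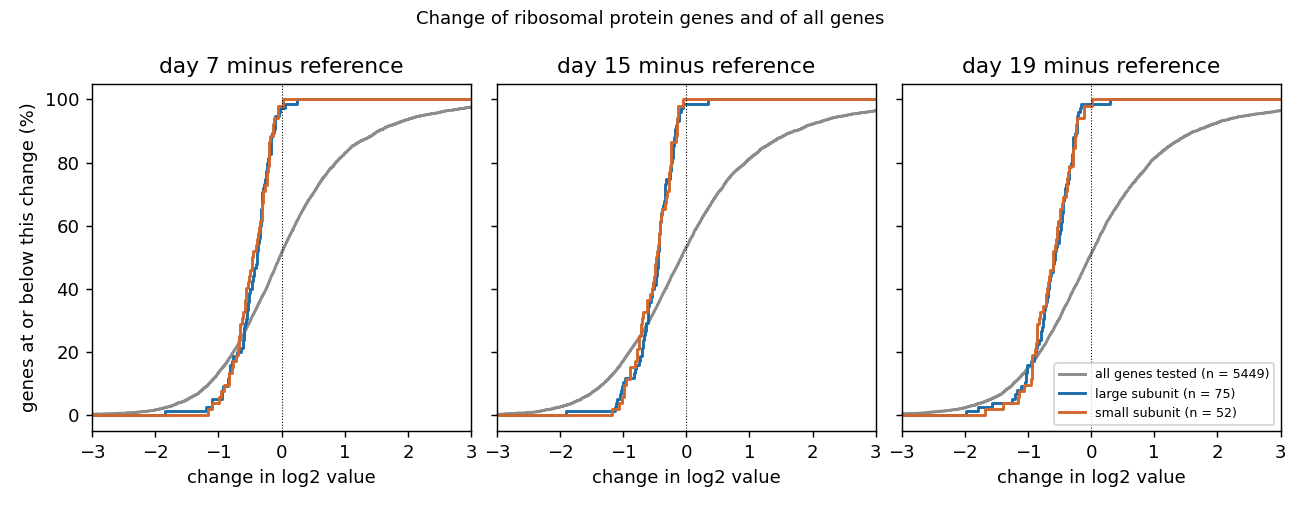
Cumulative share of genes (y axis, %) at or below a given change in log2 value from the reference (x axis), for all 5449 genes tested (grey), the 75 large subunit genes (blue) and the 52 small subunit genes (orange), in 1 panel per bottle day. The curves of both subunits rise steeply just left of 0 and run close to each other, whereas the curve of all genes spreads widely to both sides.

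By limma's moderated test over all genes, at an adjusted p under 0.05, 24 ribosomal protein genes fell at day 7 (18.9%, against 17.1% of all genes lower), 37 at day 15 (29.1%, against 23.5%) and 64 at day 19 (50.4%, against 20.8%). The share at day 7 is near that of all genes in this fit. None of the 127 genes rose, against 19.7%, 21.4% and 22.7% of all genes. By limma's unadjusted p under 0.05 the number higher was also 0 at each day while 51, 62 and 86 were lower. At this unadjusted threshold 1280, 1541 and 1395 of the 5449 genes tested were lower and 1335, 1357 and 1439 higher. The counts depended on single arrays. Without day 19 replicate 3 the day 19 count was 28 with a median change of -0.39, and the counts at day 7 and day 15 became 49 and 56. The fit takes a single spread per gene from all 4 groups, so the widely spread groups bear on the calls of the others. With only the groups compared in the fit, 65, 64 and 40 genes were lower at day 7, 15 and 19. The calls over all genes were not counted in these fits or in those with an array left out. Their counts therefore have no share of all genes to be set against. Without day 15 replicate 2 the day 15 count was 8, and without day 15 replicate 3 it was 20. Leaving out day 7 replicate 2 or 3 gave 11 or 10 calls at day 7. Leaving out reference replicate 1, 2 or 3 gave 8, 7 and 7 calls at day 7, 17, 11 and 13 at day 15, and 29, 24 and 29 at day 19. Beside the arrays named below for the call of a single gene or pair, others, mostly of the same bottle day, also ended some of these calls.

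The 17 ribosomal RNA control probe sets of the array averaged 7.95, 5.52 and 5.74 on the reference arrays and between 11.1 and 13.2 on the bottle arrays. The mean was 6.40 ± 1.34 (SD, n = 3) over the reference arrays, 12.20 ± 1.02 over those of day 7, 12.37 ± 0.51 over those of day 15 and 12.28 ± 0.79 over those of day 19. They were highest on day 19 replicate 3, at 13.16, the array on which the ribosomal protein genes were lowest. Next highest was day 7 replicate 1, at 13.02, on which those genes were not low. It was followed by day 15 replicate 2, at 12.72, the array with the next lowest median of those genes, 12.88. The part of these probe sets in the results on ribosomal protein genes was not tested.

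The medians of the subunits lay close together. Of the 75 large subunit genes 14, 21 and 37 fell at day 7, 15 and 19, with median changes of -0.39, -0.45 and -0.57. Of the 52 small subunit genes 10, 16 and 27 fell, with median changes of -0.46, -0.47 and -0.60. The shares were 18.7%, 28% and 49.3% of the large and 19.2%, 30.8% and 51.9% of the small subunit genes. Of all genes 17.1%, 23.5% and 20.8% were lower, so the day 7 shares of both subunits are near that of all genes. The median of the large subunit genes minus that of the small subunit genes was -0.11 ± 0.021 (SD, n = 3) on the reference arrays, -0.12 ± 0.037 at day 7, -0.074 ± 0.014 at day 15 and -0.11 ± 0.031 at day 19. With any single array left out the large subunit counts ran from 4 to 29, 4 to 33 and 13 to 43, and those of the small subunit from 3 to 20, 4 to 23 and 11 to 34. Without day 15 replicate 2 the day 15 counts were 4 in each subunit, and without day 19 replicate 3 the day 19 counts were 17 and 11.

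By brightest probe set, the family's lowest change at each day was that of RPL41A, a large subunit gene encoding a very short basic protein. It was at 9.87, 10.57 and 9.01 on the reference arrays, 8.03, 7.98 and 7.91 at day 7, from 7.67 to 8.05 at day 15, and 8.04, 7.85 and 7.64 at day 19. Its changes of -1.84, -1.91 and -1.97 (limma standard error 0.32) had adjusted p of 0.00151, 0.00103 and 0.000895. Its reference arrays were further apart than those of any bottle group, yet no array of one condition reached into the other. The suffix of its probe set marks sequence shared with another gene, so the signal may include RPL41B.

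RPL6B, a protein of the solvent side of the large subunit, was at 13.73, 13.75 and 13.79 in the reference, 12.66, 12.83 and 12.48 at day 7, 13.00, 12.32 and 12.60 at day 15, and 12.35, 13.04 and 12.25 at day 19. The gene fell at each day, with changes of -1.10, -1.12 and -1.21 (standard error 0.25, limma adjusted p of 0.00616, 0.00434 and 0.00316). RPL13A was at 13.30, 13.29 and 13.35 in the reference, 12.28, 12.30 and 12.07 at day 7, 12.60, 12.01 and 12.42 at day 15, and 12.28, 12.58 and 11.55 at day 19. It fell, with changes of -1.10, -0.97 and -1.18 (standard error 0.26, limma adjusted p of 0.00799, 0.0113 and 0.00462), and without day 15 replicate 2 the day 15 call was lost at an adjusted p of 0.0528. For both genes all 9 bottle arrays lay below the reference. RPL41A and RPL6B kept their calls at each day when any single array was left out.

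RPL17B and RPL4B encode proteins that line the tunnel through which the new peptide leaves the ribosome. RPL17B, at 13.44 to 13.56 in the reference, read 12.40 to 12.65 on the arrays of day 7, 11.82 to 12.79 on those of day 15 and 11.61 to 12.57 on those of day 19. It fell, with changes of -0.94, -1.13 and -1.26 (standard error 0.30, limma adjusted p of 0.0287, 0.00978 and 0.0063). RPL4B, at 12.50 to 12.63 in the reference, was at 11.02 to 12.20, 11.17 to 11.79 and 11.19 to 12.05 on the bottle arrays of day 7, 15 and 19, and fell, with changes of -0.94, -1.01 and -0.90 (standard error 0.32, limma adjusted p of 0.0362, 0.0225 and 0.0385). Its calls ended when any reference array was left out, as did that of RPL17B at day 7.

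RPL40B, whose product is made as a fusion with ubiquitin, fell, with changes of -0.84, -1.06 and -1.01 (standard error 0.24, limma adjusted p of 0.0192, 0.0049 and 0.00675), from 13.51 to 13.61 in the reference to between 12.04 and 13.00 on the bottle arrays. RPL34A fell, with changes of -0.81, -1.03 and -1.02 (standard error 0.29, limma adjusted p of 0.0497, 0.0153 and 0.017). The day 7 calls of both ended when any reference array was left out, and those of RPL34A at day 15 and day 19 ended without day 15 replicate 2 and without reference replicate 2 or 3 or day 19 replicate 3.

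In RPL9A and RPL31B a single day 19 array lay well below the others. RPL9A was at 13.46, 13.61 and 13.53 in the reference, 12.07, 12.28 and 12.67 at day 7, 12.80, 12.30 and 13.04 at day 15, and 12.39, 12.33 and 10.51 at day 19. It fell at day 7 and day 19, with changes of -1.19 and -1.79 (standard error 0.43, limma adjusted p of 0.0482 and 0.00675), while its change at day 15 was -0.82 with an adjusted p of 0.139. The day 7 call ended when any reference, day 7 or day 15 array was left out. RPL31B, which encodes a protein beside the tunnel exit, was at 13.50, 13.50 and 13.65 in the reference and at 12.87, 12.43 and 10.64 at day 19. Its change of -1.57 ± 0.46 at day 19 passed limma's test (adjusted p of 0.0179), and those of -0.93 and -1.09 at day 7 and day 15 did not (adjusted p of 0.133 and 0.0736). The RPL31B call ended without reference replicate 3 (adjusted p of 0.0532). In both genes the lowest value was that of day 19 replicate 3, and without this array the day 19 changes were -1.18 for RPL9A and -0.90 for RPL31B, both still called (limma adjusted p of 0.00705 and 0.0252).

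RPS22A had the lowest change among small subunit genes at each day, by the brightest probe set of each gene. It was at 13.64, 13.87 and 13.60 in the reference, 12.33, 12.64 and 12.64 at day 7, 13.11, 11.82 and 12.64 at day 15, and 12.33, 12.70 and 11.04 at day 19. This gene fell at each day, with changes of -1.16, -1.18 and -1.68 (standard error 0.41, limma adjusted p of 0.0447, 0.0356 and 0.00767). Its bottle arrays were spread over more than 2 log2 units, with the lowest values again on day 19 replicate 3 and day 15 replicate 2, and the calls at day 7 and day 15 ended when any reference array was left out.

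RPS28B, whose protein in S. cerevisiae lowers the stability of its own mRNA, was at 13.06, 13.09 and 13.10 in the reference, 11.72, 12.16 and 12.09 at day 7, 12.53, 11.66 and 11.86 at day 15, and 11.50, 12.44 and 11.11 at day 19. It fell, with changes of -1.10, -1.07 and -1.40 (standard error 0.33, limma adjusted p of 0.0232, 0.0211 and 0.00625). Its paralogue RPS28A had changes of -0.57, -0.81 and -0.86 (standard error 0.23) and fell at day 15 and day 19 (limma adjusted p of 0.0136 and 0.0113). The RPS28B calls at day 7 and day 15 ended when any reference array was left out, and that of RPS28A at day 15 without day 15 replicate 2 or reference replicate 2.

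RPS26B encodes a protein of the mRNA exit channel, and RPS10B, RPS29A and RPS19A encode proteins of the head of the small subunit. RPS26B fell, with changes of -0.997, -0.78 and -1.16 (standard error 0.26, limma adjusted p of 0.0134, 0.0316 and 0.00532), from 13.76 to 13.98 in the reference to between 12.26 and 13.43 in the bottles. RPS10B fell, with changes of -0.95, -0.89 and -1.15 (standard error 0.24, limma adjusted p of 0.0114, 0.0124 and 0.00382), and RPS29A with changes of -0.83, -0.99 and -1.06 (standard error 0.25, limma adjusted p of 0.0233, 0.00823 and 0.00653). The probe sets used for RPS10B and RPS29A carry a shared-sequence suffix. RPS10B kept its calls with any single array left out, whereas the day 7 call of RPS29A and the day 15 call of RPS26B ended when any reference array was left out, and the day 7 call of RPS26B without reference replicate 3. Without day 15 replicate 2 the day 15 change of RPS26B was -0.52 (adjusted p of 0.135).

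RPS14B, RPS19A, RPS21A and RPS8B completed the small subunit genes with the largest calls. RPS14B fell, with changes of -0.73, -1.02 and -0.86 (standard error 0.23, limma adjusted p of 0.0301, 0.00486 and 0.0126). RPS19A, RPS21A and RPS8B passed at day 15 and day 19 only, with changes of -0.98 and -0.76, of -0.89 and -0.72, and of -0.69 and -0.95, and their day 7 changes of -0.66, -0.62 and -0.62 had limma adjusted p of 0.0802, 0.0865 and 0.0778. Whether their changes differed between days was covered by the comparisons between bottle days, in which none of them passed. The day 7 call of RPS14B ended when any reference array was left out, and the day 15 calls of RPS19A, RPS21A and RPS8B without day 15 replicate 2, among other arrays. The day 19 calls of RPS19A and RPS21A ended with 7 and 8 of the 12 arrays left out in turn, every reference array among them.

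The genes of the stalk, the lateral arm of the large subunit that recruits translation factors, gave 0, 0 and 2 calls among 5. Of all genes 17.1%, 23.5% and 20.8% were lower, and counts among 5 genes do not set the stalk apart from these shares. RPP0, the anchor of the stalk on ribosomal RNA, was at 13.93 to 14.04 in the reference and 13.37 to 13.90 in the bottles, with changes of -0.23, -0.19 and -0.36 (standard error 0.17, limma adjusted p of 0.324, 0.392 and 0.112). Of the acidic proteins that bind to it in pairs, RPP1B and RPP2A fell at day 19, with changes of -0.88 ± 0.26 and -0.70 ± 0.25 (limma adjusted p of 0.017 and 0.0421). RPP1A had changes of -0.02, -0.11 and -0.29, and RPP2B of -0.03, -0.20 and -0.29, with limma adjusted p between 0.182 and 0.935. The RPP2A call ended when any reference array was left out or without day 19 replicate 3, and that of RPP1B without reference replicate 1 or 2. Without day 19 replicate 3 the day 19 changes were -0.57 for RPP1B and -0.43 for RPP2A.

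Of the 18 single-copy genes 0, 0 and 3 fell by limma's test at day 7, 15 and 19, against 17.1%, 23.5% and 20.8% of all genes. The share at day 19 is near that of all genes. At limma's unadjusted p under 0.05, 1, 3 and 9 of the 18 were lower, against 1280, 1541 and 1395 of the 5449 genes tested. The median changes of the single-copy genes were -0.27, -0.24 and -0.40. Of the 109 genes with a copy letter 24, 37 and 61 fell, with median changes of -0.47, -0.49 and -0.63. Without day 19 replicate 3 the single-copy count was 3, 3 and 2, and at day 19 it was 0 without reference replicate 2 and 7 without day 19 replicate 1. Non-overlap did not separate these groups in the same way: 16, 17 and 18 of the 18 single-copy genes lay below the reference without overlap, against 33%, 37.8% and 30.6% of all genes.

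Several single-copy genes with central roles moved little on the log2 scale while keeping clear of the reference. RPL25, which contacts the signal recognition particle at the tunnel exit, was at 13.96, 14.03 and 14.02 in the reference and 13.45 to 13.88 in the bottles (changes of -0.23, -0.21 and -0.35, limma adjusted p of 0.312, 0.319 and 0.112). RPL28, the target of cycloheximide resistance mutations, was at 13.94 to 13.97 and 13.32 to 13.76 (changes of -0.35, -0.40 and -0.43, limma adjusted p of 0.15, 0.0907 and 0.0743). RPL30, which in S. cerevisiae inhibits splicing of its own transcript, was at 13.97 on each reference array and at 13.59 to 13.96 in the bottles, with changes of -0.10, -0.16 and -0.22.

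RPL3, a protein near the peptidyl transferase centre, was at 13.90 to 13.97 in the reference and 13.05 to 13.87 in the bottles, with changes of -0.43, -0.26 and -0.22 (limma adjusted p of 0.141, 0.347 and 0.447). RPL10, which joins the large subunit late in its assembly, overlapped the reference, at 13.91 to 14.00 against 13.58 to 13.95, with changes of -0.11, -0.15 and -0.21. RPS31, a ubiquitin fusion of the small subunit, also overlapped, at 13.94 to 13.98 against 13.69 to 13.99, with changes of -0.06, -0.06 and -0.12. RPS6B, the phosphorylated protein read out as a mark of TOR signalling, changed by -0.23, -0.28 and -0.35 without passing (limma adjusted p of 0.311, 0.201 and 0.122), with a probe set that shares sequence.

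The change was larger, at the median, among genes whose probe sets gave a lower reference signal. Ordered by their reference mean alone, the 42 genes of the lowest signal had median changes of -0.56, -0.55 and -0.72, the next 42 of -0.43, -0.49 and -0.64, and the 43 of the highest signal of -0.24, -0.26 and -0.40. Across the 127 genes the Spearman correlation of the reference mean with the change was 0.38, 0.42 and 0.34, a description of genes that share the same arrays. It orders probe set signals, and the reference mean is also subtracted in each change. The correlation with gene length was -0.093, -0.016 and -0.0066. The genes of the highest signal stood near the top of the scale, where the 99th percentile of all genes on an array was 13.8 to 13.9 and the highest gene 14.3 to 14.6. The part of this upper range in the size of the changes was not tested, and all 18 single-copy genes had means over the 12 arrays of 13.0 or more. By probe set signal, RPS21A, RPL18B and RPS8B had the highest reference means, at 14.21, 14.11 and 14.08, and RPL41A, RPL15B and RPL22B the lowest, at 9.82, 10.39 and 11.02, which says nothing of their order in transcript abundance.

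RPL15B and RPL22B, named for their low reference signals, did not pass limma's test at any day. RPL15B was at 10.40, 10.24 and 10.54 in the reference, 10.19, 10.98 and 10.74 at day 7, 10.63, 10.58 and 11.00 at day 15, and 10.62, 10.73 and 10.72 at day 19. Its changes of 0.24, 0.35 and 0.29 (standard error 0.23, limma adjusted p of 0.417, 0.232 and 0.313) were the highest of the family at each day. RPL22B, whose splicing in S. cerevisiae is inhibited by Rpl22, was at 10.95, 10.95 and 11.16 in the reference and between 10.00 and 11.40 in the bottles, with changes of -0.52, -0.43 and -0.26 (limma adjusted p of 0.294, 0.366 and 0.607). Its paralogue RPL22A, at 13.54 to 13.63 in the reference and 12.16 to 13.16 in the bottles, fell at day 15 and day 19, with changes of -0.69 and -0.87 (limma adjusted p of 0.0405 and 0.0158), the day 15 call ending with any reference array left out.

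The copies of a pair were then compared within each array. For 49 pairs, 28 of the large and 21 of the small subunit, both copies had a probe set without a shared-sequence suffix, and the difference of copy A minus copy B was fitted with limma beside all genes. This difference tests unequal change of the signals, and leaves out what moves both copies alike only where their probe sets respond alike. The copies of a pair can differ in signal, and the part of this in the calls was not tested. It changed against the reference for 11 pairs at day 7 (22.4%), 11 at day 15 (22.4%) and 16 at day 19 (32.7%). Among these differences and all genes together 36.7%, 44.8% and 43.4% were called in either direction, and the shares of the pairs lie below these. Copy A fell relative to copy B in 5, 6 and 6 of the called pairs and rose relative to it in 6, 5 and 10. The groups did not overlap for 36, 34 and 31 pairs (73.5%, 69.4% and 63.3%), near the 63.9%, 70.8% and 59.5% of these differences and all genes together, and the median size of the change in the difference was 0.35, 0.30 and 0.44.

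Over the 3 days 19 pairs were called at least once, 11 of the large subunit (RPL6, RPL9, RPL13, RPL15, RPL17, RPL21, RPL23, RPL31, RPL34, RPL40 and RPP1) and 8 of the small subunit (RPS10, RPS14, RPS19, RPS22, RPS24, RPS25, RPS26 and RPS29). The counts depended on the reference arrays: without replicate 1, 2 or 3 of the reference they were 2, 2 and 3 at day 7, 5, 5 and 7 at day 15, and 6 each time at day 19. They also fell to 5, 3 and 2 at day 7 without replicate 1, 2 or 3 of that day, and to 7 without day 15 replicate 3. At day 15 they were 4 without day 15 replicate 2 and 6 without day 15 replicate 3. Without day 19 replicate 3 they were 18 at day 7 and 10 at day 19.

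**Figure D3:**
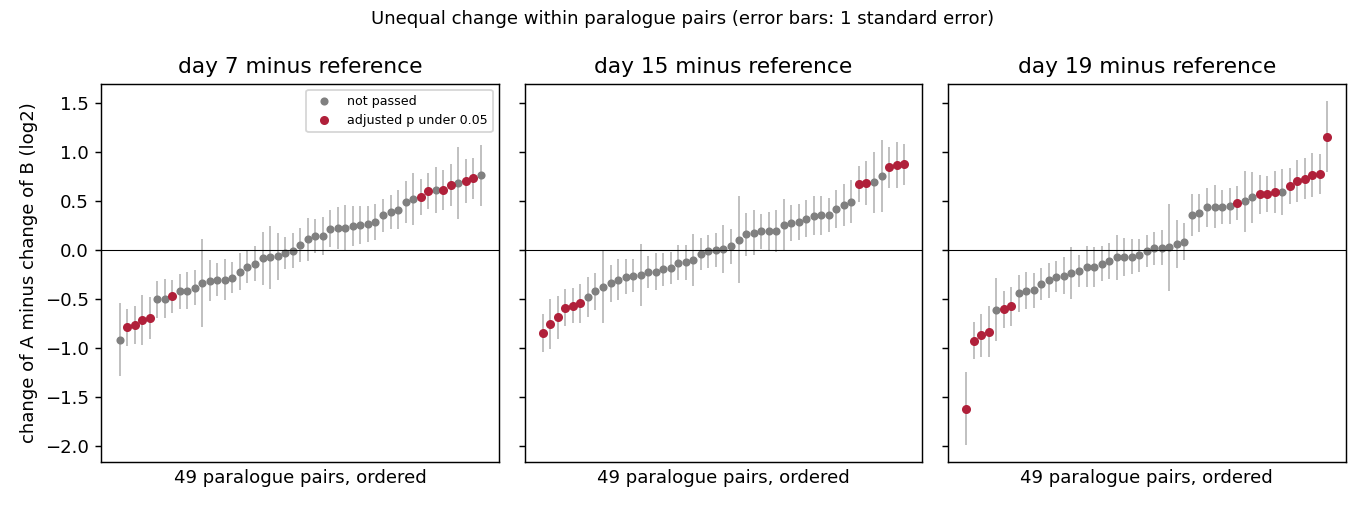
Change from the reference in the log2 difference of copy A minus copy B (y axis) for 49 paralogue pairs ordered by size (x axis), in 1 panel per bottle day, with bars of 1 limma standard error and pairs past an adjusted p of 0.05 in red. The points run smoothly through 0, with called pairs at both ends, and at day 19 RPL9 (lowest) and RPL31 (highest) stand apart from the rest.

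Of the 8 named pairs, RPS29 kept its calls at all 3 days whichever array was left out. RPS29A minus RPS29B was -0.26, -0.24 and -0.20 on the reference arrays, -1.08, -0.98 and -0.94 at day 7, -0.92, -1.39 and -0.95 at day 15, and -1.03, -1.01 and -1.43 at day 19. The difference fell, with changes of -0.77, -0.85 and -0.92 (standard error 0.19, limma adjusted p of 0.0108, 0.00492 and 0.00354). All 9 bottle arrays lay below the reference, RPS29A being the copy with the lower change.

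In RPS22 and RPL9 copy A was likewise the one with the lower change. RPS22A minus RPS22B was 0.55, 0.71 and 0.36 in the reference, -0.20, -0.09 and -0.18 at day 7, 0.27, -0.37 and -0.35 at day 15, and -0.34, -0.12 and -0.54 at day 19. It fell, with changes of -0.69, -0.69 and -0.87 (standard error 0.22, limma adjusted p of 0.0276, 0.0232 and 0.00829). RPL9A minus RPL9B was 0.75, 0.76 and 0.69 in the reference, -0.51, -0.30 and 0.26 at day 7, 0.05, 0.49 and 0.53 at day 15, and -0.41, -0.37 and -1.89 at day 19. It fell at day 19, with a change of -1.62 ± 0.37 (limma adjusted p of 0.00551), and of -1.12 with an adjusted p of 0.00815 without day 19 replicate 3. Its changes of -0.92 at day 7 and -0.38 at day 15 did not pass (adjusted p of 0.0727 and 0.425). The RPS22 calls at day 7 and day 15 ended without reference replicate 1 or 2, among other arrays, and that at day 19 held with each array left out.

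RPL17, RPL40 and RPS14 moved the other way, the B copy being the one with the lower change. RPL17A minus RPL17B rose by 0.62, 0.88 and 0.78 (standard error 0.21, limma adjusted p of 0.038, 0.00613 and 0.012), from 0.06 to 0.29 in the reference to between 0.71 and 1.49 in the bottles. RPL40A minus RPL40B rose by 0.67, 0.84 and 0.71 (standard error 0.21, limma adjusted p of 0.0301, 0.0083 and 0.0206), from 0.37 to 0.47 to between 0.81 and 1.62. RPL40A itself, at 13.95 to 14.05 in the reference, had changes of only -0.17, -0.21 and -0.30 and did not pass. For both pairs the day 7 calls ended when any reference array was left out, as did that of RPL40 at day 19.

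RPS14A minus RPS14B was 0.69, 0.73 and 0.56 in the reference and 1.31, 1.81 and 1.46 at day 15, a rise of 0.87 ± 0.23 (limma adjusted p of 0.0115), which did not pass without day 15 replicate 2 (adjusted p of 0.0525). At day 7 and day 19 the changes were 0.61 and 0.60 with adjusted p of 0.0599 and 0.0586. In S. cerevisiae the Rps14 protein represses expression of RPS14B, the copy that fell, while RPS14A had changes of -0.11, -0.15 and -0.26 and did not pass.

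RPL31A minus RPL31B was 0.11, 0.08 and -0.01 in the reference, 0.67, 0.94 and 0.62 at day 7, 0.71, 1.08 and 0.66 at day 15, and 0.47, 0.94 and 2.26 at day 19. All 9 bottle arrays lay above the reference, but only the day 19 rise of 1.16 ± 0.37 passed (limma adjusted p of 0.0251, against 0.162 and 0.112 at day 7 and day 15). Without day 19 replicate 3 it was 0.64 with an adjusted p of 0.0455, and with any reference array left out the call ended. RPL15A minus RPL15B was 3.09, 3.33 and 2.91 in the reference and 1.94 to 2.86 in the bottles, a fall at each day, with changes of -0.71, -0.76 and -0.83 (standard error 0.26, limma adjusted p of 0.0483, 0.0315 and 0.0224). Each of the RPL15 calls ended without reference replicate 1 or 2.

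**Figure D4:**
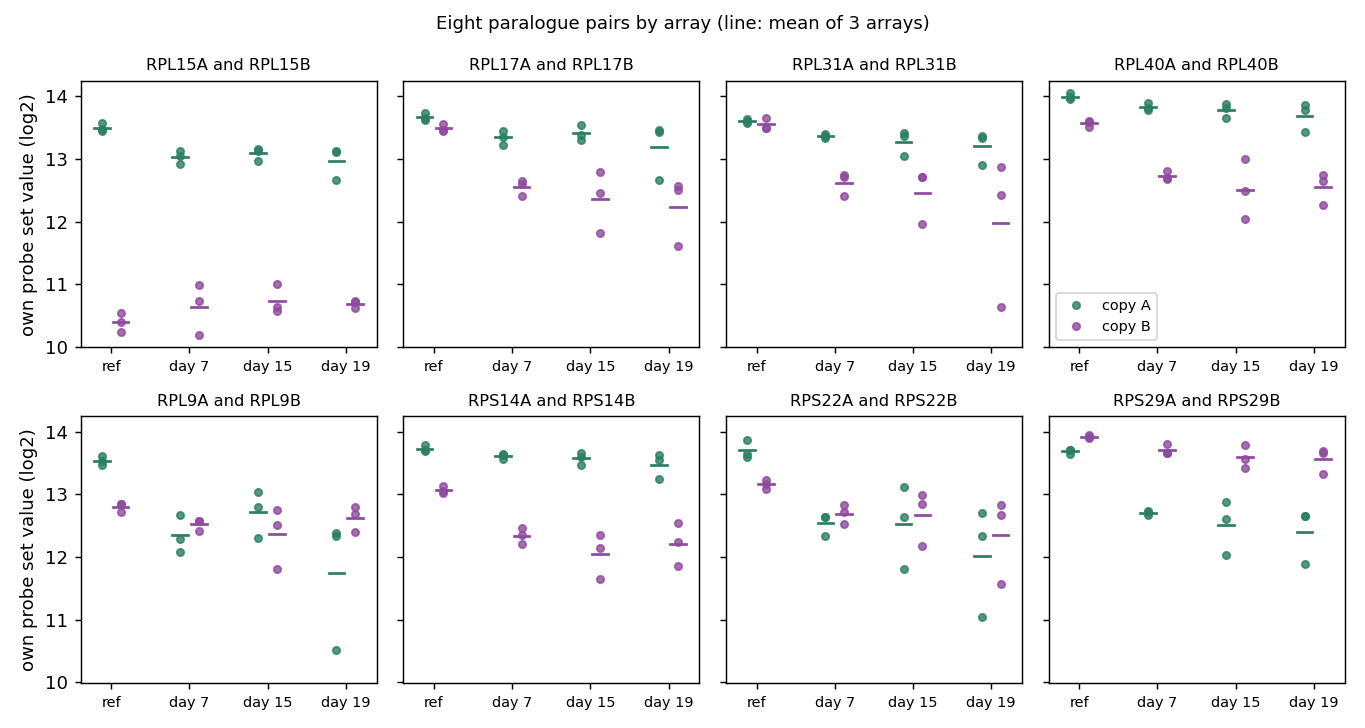
Log2 values (y axis) of the probe sets specific to copy A (green) and copy B (purple) on the arrays of the reference and of each bottle day (x axis), for the 8 pairs with the largest called changes, with lines at the means of 3 arrays. The gap between the copies, not their relative height, can be compared between groups: copy A moves down relative to copy B in RPL9, RPL15, RPS22 and RPS29, and up relative to it in RPL17, RPL31, RPL40 and RPS14.

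For 20 genes both a specific probe set and one with a shared-sequence suffix were on the array, so that each of these genes was measured by both. The specific probe set had the lower change in 17, 16 and 17 of the 20 at day 7, 15 and 19, with medians of -0.43, -0.56 and -0.66 against -0.30, -0.33 and -0.42 for the shared one. The shared one was the brighter in 17. Since the brightest probe set stood for each gene, 27 of the 127 genes were represented by a shared probe set. Among these 3, 3 and 7 fell (11.1%, 11.1% and 25.9%), against 21, 34 and 57 of the 100 represented by a specific one. Of all genes 17.1%, 23.5% and 20.8% were lower, so the day 7 share of the specific and the day 19 share of the shared probe sets are near these.

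RPL18B showed the widest gap at day 7 and day 15, and RPS11B at day 19. Its specific probe set was at 12.44, 12.76 and 12.76 in the reference, 10.59, 11.31 and 10.52 at day 7, 10.95, 10.38 and 10.89 at day 15, and 11.57, 11.18 and 11.17 at day 19. It fell, with changes of -1.85, -1.91 and -1.34 (standard error 0.26, limma adjusted p of 0.000391, 0.000299 and 0.00224 in a fit of all probe sets). The shared probe set, which represented the gene, was at 14.09, 14.11 and 14.14 in the reference and changed by -0.32, -0.33 and -0.57, of which only the last passed, and not without day 19 replicate 3 or when any reference array was left out.

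RPS18B and RPS11B gave a similar picture. The specific probe set of RPS18B fell, with changes of -0.93, -0.72 and -1.13 (limma adjusted p of 0.0083, 0.0212 and 0.00253), and its shared one had changes of -0.35, -0.42 and -0.47 that did not pass. That of RPS11B had changes of -0.77, -0.78 and -1.11, the last 2 of which passed (limma adjusted p of 0.0437 and 0.00992), against -0.30, -0.24 and -0.29 for the shared one. In 3 genes, RPL8A, RPS24A and RPS26A, the specific probe set had the higher change at each day. The gap was widest in RPL8A, whose specific probe set changed by 0.06, -0.06 and -0.45 and its shared one by -0.55, -0.53 and -0.86, none of which passed. The difference between the probe sets of a gene was not tested.

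**Figure D5:**
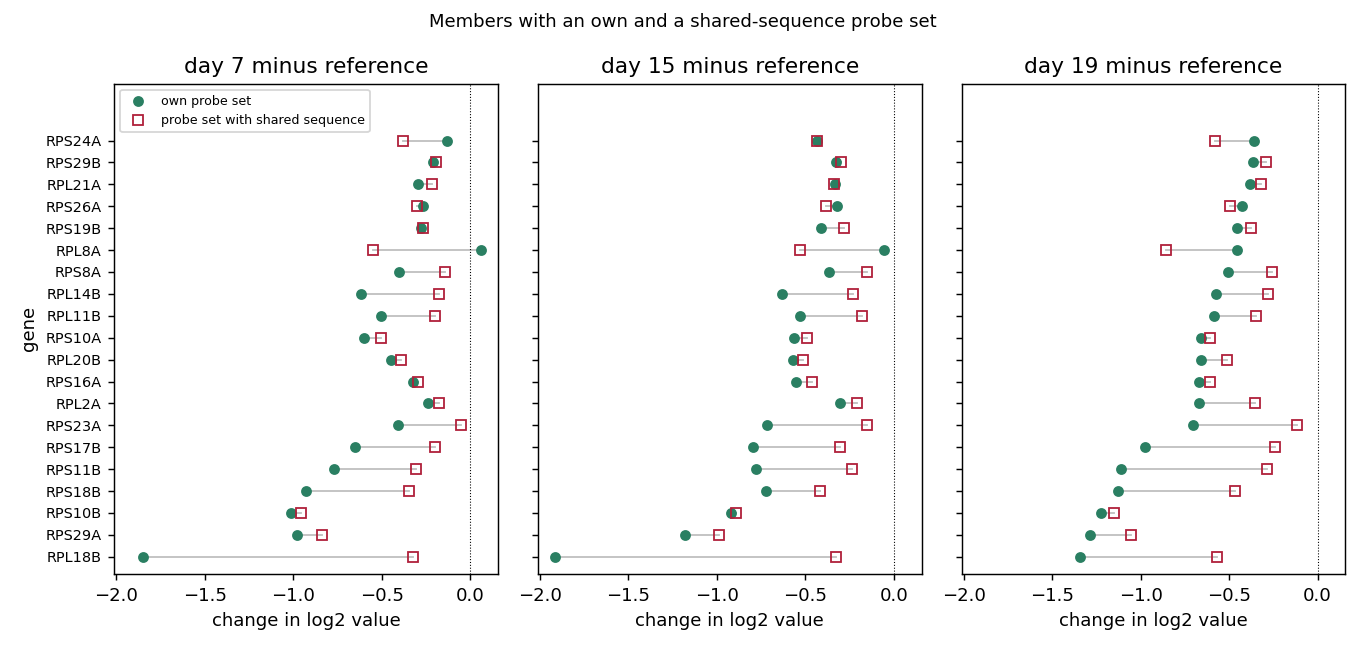
Change in log2 value from the reference (x axis) of the specific probe set (green circles) and the shared-sequence probe set (open red squares) of 20 ribosomal protein genes (y axis), in 1 panel per bottle day, with a line joining the 2 probe sets of a gene. The circle lies to the left of the square for most genes, by most in RPL18B at day 7 and day 15 and in RPS11B at day 19, and to its right at each day in RPL8A, RPS24A and RPS26A.

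Between the bottle days no ribosomal protein gene passed limma's test. The counts were 0 of 127 for day 15 against day 7, for day 19 against day 15 and for day 19 against day 7, where 0%, 0% and 0.0184% of all genes were lower and 0%, 0% and 0.128% higher. At limma's unadjusted p under 0.05, 0, 1 and 0 genes of the family were lower and 0 higher. Of the 5449 genes tested 360, 213 and 309 were lower and 212, 387 and 366 higher at this threshold. limma's F-test across the 3 bottle days called 0 of the 127 (0.0367% of all genes), and at an unadjusted p under 0.05 it gave 0 of the family and 687 of all genes. The median change was -0.05 from day 7 to day 15, -0.11 from day 15 to day 19 and -0.15 from day 7 to day 19. Groups did not overlap, with the later day lower, for 2, 0 and 8 genes, against 9.1%, 4.88% and 6.11% of all genes, and with the later day higher for 0, 0 and 0, against 6.17%, 7.8% and 5.87%. The A minus B difference also gave 0 of 49 calls in each comparison (0%, 0% and 0.146% of all genes and pairs together), with 1, 2 and 1 pairs at an unadjusted p under 0.05.

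Regulators of the family were read from a list of 27 genes, of which 26 were measured. By limma's test 0 fell and 4 rose at day 7, 7 fell and 6 rose at day 15, and 5 fell and 5 rose at day 19, with median changes of -0.14, -0.14 and 0.02. Over all genes tested 17.1%, 23.5% and 20.8% were lower and 19.7%, 21.4% and 22.7% higher, so the shares at day 15 and day 19 are near those of all genes. Among the promoter-bound activators, RAP1, FHL1 and IFH1 fell at day 15 and were not called at day 7. Their day 15 changes were -0.94 ± 0.22, -0.99 ± 0.30 and -1.31 ± 0.32 (limma adjusted p of 0.00628, 0.0197 and 0.00682). At day 19 their changes of -0.58, -0.25 and -0.10 did not pass. SFP1, an activator that enters the nucleus in growing cells, fell at day 15 and day 19, with changes of -0.95 and -1.15, and HMO1, an HMG-box protein of these promoters, had changes of -0.10, -0.12 and -0.28 that did not pass. ABF1 and REB1, general regulatory factors, fell at the same days, with changes of -0.93 and -1.07 and of -1.40 and -1.27. The FHL1 and SFP1 calls at day 15 ended without reference replicate 1 or 2, day 15 replicate 2 or day 15 replicate 3, among others.

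CRF1, which encodes the corepressor that takes the place of Ifh1 on Fhl1 when TOR is inhibited, had the largest change in the list. It was at 4.85 on average in the reference, close to background, and rose by 2.77 ± 0.54, 4.19 ± 0.54 and 4.50 ± 0.54 (limma adjusted p of 0.00295, 0.000229 and 0.000144). YAK1, a kinase opposed by protein kinase A that acts on Crf1, rose by 1.96, 1.56 and 1.32, and STB3, a repressor held in check by Sch9, by 1.53, 1.03 and 1.01. With any single array left out, the list's counts at day 7, 15 and 19 ran from 0 to 2, 4 to 8 and 3 to 6 lower and from 3 to 5, 3 to 6 and 2 to 6 higher. The CRF1 and YAK1 calls held with any single array left out, and those of STB3 at day 15 and day 19 ended without day 15 replicate 2 and without reference replicate 2. TPK2 also rose at day 7, a call that ended when any reference array was left out. Further calls of the list, in both directions, were those of TPK2 and CBF1 at day 15. TBF1 and DOT6 were called at day 15 and day 19, and KOG1 and ESA1 at day 19. TOR1, TOR2 and SCH9 did not pass at any day.

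Genes that handle newly made ribosomal proteins were also lower. Of 12 dedicated chaperones and importins 10, 11 and 7 fell and 0 rose (all genes: 17.1%, 23.5% and 20.8% lower, 19.7%, 21.4% and 22.7% higher), with median changes of -1.21, -1.36 and -0.98, beside the -0.40, -0.45 and -0.59 of the ribosomal protein genes (the gap was not tested). TSR2, the chaperone of Rps26, fell, with changes of -1.99, -2.26 and -1.32 (standard error 0.35, limma adjusted p of 0.00145, 0.000584 and 0.0108). KAP123, an importin that carries many ribosomal proteins into the nucleus, fell, with changes of -1.61, -2.09 and -1.72, and ACL4, the chaperone of Rpl4, with changes of -1.59, -1.37 and -0.90. YAR1, the chaperone of Rps3, had changes of -0.26, -0.16 and -0.26 and did not pass. The named calls held with any single array left out, and the counts ran from 6 to 11, from 9 to 11 and from 4 to 8, the lowest at day 7 without reference replicate 2 or 3 and at day 19 with any reference array left out.

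Of 14 factors that work on the ribosome, 7, 10 and 10 fell and 0 rose (against the same shares of all genes as above), with median changes of -0.72, -0.93 and -1.08. NAT1, a subunit of the N-terminal acetyltransferase that acts on new peptides, fell, with changes of -1.24, -1.62 and -1.90 (standard error 0.27, limma adjusted p of 0.00478, 0.000876 and 0.000346). ZUO1, which docks beside Rpl31 at the tunnel exit, fell, with changes of -1.17, -1.12 and -1.50, and its calls at day 7 and day 15 ended without day 7 replicate 3 and without day 15 replicate 2 or 3. ASC1, a core component of the small subunit head that carries no RPS name, had changes of -0.45, -0.20 and -0.55 and did not pass (limma adjusted p of 0.124, 0.465 and 0.0581). The counts were as low as 4 at day 7 with any reference array left out or day 7 replicate 1 or 3, and 4 at day 15 without day 15 replicate 2 or 3.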

How the data were processed

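Total RNA of 12 samples was labelled by 3' in vitro transcription and hybridised to Affymetrix arrays, per the labels' protocols. The deposited values are log2 summaries per probe set, made by the authors with RMA, per the submitters' processing notes. Which software was used is not given in the sources used here. They were not rescaled. GEO's platform annotation paired 5498 of 10928 probe sets with 1 S. cerevisiae gene, and the probe set with the highest mean stood for a gene (5449 genes, 147 probe sets for the 127 family members, 12 symbols updated through RefSeq, none of them in the family). A suffix on the probe set name marks sequence shared with other genes. Background is the 0.95 quantile of S. pombe probe set means. The test was limma's (version 3.58.1, lmFit and eBayes, under R 4.3.3), in 1 fit of 4 groups with 8 residual and 3.42 prior degrees of freedom. Adjusted p is Benjamini-Hochberg over all genes of a comparison, called under 0.05. Errors after ± are limma standard errors unless SD is written. For pairs, A minus B differences of the brightest specific probe sets were added as rows to the table of all genes. Arrays have no read depth; their number, 3 in each group, limits the precision. The fit was tested on simulated data in which each gene had the same spread in all 4 groups. The measured groups differ in spread, so the simulation does not cover this condition.

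Genes were named by a rule: the 5 genes of each subunit with the largest called change at each day, the 8 pairs with the largest called change, the 3 highest and 3 lowest reference means, and 21 genes of known role, of which RPS6A was not analysed here. Genes named from the other lists, and the RPS18B, RPS11B, RPS24A, RPS26A, RPL8A and RPL18B probe sets, were chosen after their values were seen. The family, the rule and the lists were chosen with earlier results of these data known. Replicate numbers were not taken to pair the samples. Deviations of same-numbered arrays correlated between -0.28 and 0.41 over 18 pairs of arrays, 7 of them above 0.1. Arrays of different numbers were not correlated for comparison, so this check cannot exclude a pairing. Alternatives were other scalings, a filter on dim genes, the mean of all probe sets of a gene, specific probe sets only, other eBayes settings, only the groups compared, array weights, the replicate number as a block, removal of a gene length trend, adjusted p under 0.01, and each array left out. Preferring each member's specific probe set, and the brightest probe sets in the pairs, were added after seeing the data. Figures were drawn with matplotlib 3.10.9 in Python 3.11.15.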

Additional observations from a re-analysis of the deposited data

Results flagged for a closer look

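The array carries 17 control probe sets for ribosomal RNA, which entered no comparison of the ribosomal protein genes. Their signal was well above that of the reference arrays in each bottle group: the mean was 12.20 at day 7, 12.37 at day 15 and 12.28 at day 19, against 6.40 in the reference, and the lowest bottle array (11.1) lay above the highest reference array (7.95).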

How the results depend on the processing

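No called result changed its direction. With any single array left out, the number of ribosomal protein genes that fell lay between 7 and 49 (day 7), 8 and 56 (day 15) or 24 and 77 (day 19), and the number of called pairs from 2 to 18, 4 to 14 and 6 to 19. The number higher stayed at 0, non-overlap held for 117 to 120, 115 to 121 and 120 to 122 genes, and the median change ran from -0.43 to -0.39, -0.55 to -0.30 and -0.69 to -0.39. The large minus small subunit difference of median changes (0.074, 0.022 and 0.032) ran from 0.018 to 0.083, -0.013 to 0.035 and -0.0040 to 0.051, its sign turning at day 15 without reference replicate 2 or day 15 replicate 1 and at day 19 without day 19 replicate 1. Trend and robust eBayes settings gave 40 and 61 lower genes at day 7 and day 15 and 22, 17 and 26 pairs. Only the groups compared gave 65, 64 and 40 lower genes, and 21 pairs at day 7 and 10 at day 19. Array weights, whose estimation stopped before convergence, gave 84 and 105 lower genes at day 7 and day 15, 1 higher gene at each, 28 and 34 pairs, and 1, 2 and 1 pairs between bottle days. An adjusted p under 0.01, a stricter threshold, left 4, 7 and 15 genes and 1, 3 and 3 pairs. Removing a trend on gene length gave 38 and 58 lower genes, a day 7 median of -0.51 and subunit differences of 0.023 at day 7 and 0.10 at day 19. The day 7 median was -0.34 after quantile normalization, -0.33 with equal S. pombe medians, -0.49 over genes with a specific probe set chosen and -0.47 with specific probe sets preferred. The subunit difference was 0.029 and 0.043 (day 7 and day 15) after quantile normalization, 0.063 at day 15 with averaged probe sets, 0.079 at day 15 over genes with a specific probe set chosen, and 0.085 and 0.071 (day 15 and day 19) with specific probe sets preferred. Without day 7 replicate 1 and day 19 replicate 1 together it was -0.0040 at day 19, and 1 pair was called between day 19 and day 7. For changes other than fewer arrays or a stricter threshold, the cause was not tested. The calls over all genes were not counted under any alternative, so these counts cannot be set against a share of all genes. With the replicate number as a block, a number not taken to pair the samples, 20, 32 and 57 genes were lower and 10, 11 and 16 pairs were called. Of the 55 calls of named genes 26 held with each array left out, and of the 18 of named pairs 8. The 3 arrays per group, of which those of the bottles were spread more widely, limit which single genes pass.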

Other observations

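Splicing factors were read from a list of 20 genes, since many ribosomal protein genes hold introns. At day 7, 15 and 19, 2, 4 and 1 fell and 4, 3 and 5 rose by limma's test, with median changes of 0.05, -0.07 and 0.37. Of all genes 17.1%, 23.5% and 20.8% were lower and 19.7%, 21.4% and 22.7% higher, and no count of the list lies far above these shares. With any single array left out the counts ran from 0 to 3, 3 to 4 and 1 to 1 lower and from 1 to 5, 1 to 4 and 2 to 6 higher. PRP3, a component of the tri-snRNP, rose by 1.26, 1.08 and 1.06, and BRR2, the helicase that unwinds the U4/U6 duplex, fell by 1.02, 1.49 and 1.04. The BRR2 call at day 7 ended without reference replicate 1 or 2 or day 7 replicate 2.

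In the RefSeq gene order 9 pairs of ribosomal protein genes lie next to each other, and some neighbours had changes of different size. RPL13A changed by -1.10, -0.97 and -1.18, while its neighbours RPS16B and RPP1A changed by -0.47, -0.43 and -0.60 and by -0.02, -0.11 and -0.29. RPS14B and RPS22A, which are neighbours, changed by -0.73, -1.02 and -0.86 and by -1.16, -1.18 and -1.68, and RPL39, the next gene, by -0.37, -0.47 and -0.67. RPL24A changed by -0.56, -0.61 and -0.76 and its neighbour RPL30 by -0.10, -0.16 and -0.22. The differences between neighbours were not tested.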
